A study of Rattus norvegicus with 24 samples.

Results

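Genes that direct the making of muscle fibres were followed across silenced, recovering and sham-operated limbs of aged rats. The 10 symbols listed were the myogenic regulatory factors Myod1, Myog, Myf5 and Myf6, the satellite cell factor Pax7, the fusogens Mymk and Mymx, and the MEF2 factors Mef2a, Mef2c and Mef2d. They were found by their symbol in a table of 13458 symbols. A row was found for 8 of the 10, and each of the 8 had a single row. Mymx and Mef2c are not analysed here.

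The series holds mRNA sequencing of the tibialis anterior (TA), the main dorsiflexor of the ankle, from both hind limbs of 12 male Fischer 344 rats aged 23 ± 1 months (SD). In 9 animals a pump delivered tetrodotoxin (TTX), a blocker of voltage-gated sodium channels, to the left common peroneal nerve. This was meant to keep nerve impulses from the left TA while the tibial nerve stayed active. How complete the block was in each limb is not given by the data used here. The atrophy group (n = 3 animals) was taken after 6 to 7 days of TTX, the recovery group (n = 3) after the same TTX and 9 days without it, and the repeated atrophy group (n = 3) after a second TTX period of 5 to 6 days that followed these 9 days. The right limbs of these 9 animals received no TTX and form the control group, with control limbs 1 to 3 from the atrophy animals, 4 to 6 from the recovery animals and 7 to 9 from the repeated atrophy animals. The 3 sham animals had the surgery without TTX, with 1 animal at each time point, and are called sham 1 (atrophy time), sham 2 (recovery time) and sham 3 (repeated atrophy time). The model has limits: the right limb shares the circulation and the extra load of an animal with a silenced left limb, every rat was male and of 1 strain and age, and there was no young group in these files.

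Myogenic regulatory factors are basic helix-loop-helix proteins that pair with E proteins, bind E-box sequences and switch on muscle genes. In adult muscle, Myf5 and Myod1 mark satellite cells and myoblasts, Myog drives their differentiation, and Myf6, also known as Mrf4, is the factor that mature fibres express most. The nuclei inside a fibre also make Myod1 and Myog, and these genes are known to respond to nerve activity, being kept low in innervated muscle. Mymk encodes myomaker, a membrane protein that myoblasts need to fuse, and MEF2 proteins work with the myogenic factors on shared promoters. The tissue is a mixture, so that fewer cells of a type and less RNA per cell cannot be told apart here.

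Levels are given in CPM, the number of reads of each gene when a library is scaled to 1000000, and the depth read from the step between low values was between 18.9 and 30.9 times 1000000 reads in a library (median 26.1), so that 1 read was worth less than 0.1 CPM. The labelled tissue was matched by its markers: 15 of 15 myofibre genes were above 1 CPM on average in all 6 groups, and their summed level ranged from 122786 to 315451 CPM over the limbs. A difference is called here when the fold was at least 1.2 and the adjusted p at most 0.05 in limma with Benjamini-Hochberg adjustment over all rows. Log2 fold changes refer to CPM + 1 and understate the change of low genes. Against control, the median log2 fold change of all rows was 0.22 in atrophy, 0.02 in recovery and 0.20 in repeated atrophy, and after a trimmed mean rescaling it was 0.00, 0.01 and -0.01, so values of the members are to be read relative to these. Of the rows called, 89.7% were higher in atrophy than in control as deposited and 49.1% after rescaling, and for repeated atrophy these shares were 81.8% and 52.1%.

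In rn7, the build of the table, Myf5 (chr7:42802946-42806178) and Myf6 (chr7:42813008-42814853) lay next to each other on the minus strand, 6830 bases apart with no other row between them. Myod1 lay at chr1:96884864-96887575 (plus strand), Myog at chr13:45745455-45748045 (plus), Mymk at chr3:10388361-10397344 (minus) and Pax7 at chr5:152000092-152097932 (minus). Mef2a lay at chr1:120850126-120981961 (minus) and Mef2d at chr2:173606490-173632363 (plus). These spans run over the exons and introns of each gene.

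Promoters were taken from RefSeq (build GRCr8), which gave an entry for 6 of the 8 genes with a row and none for Myod1 and Mymk. The 150 bases just before the start are shown, 5′ to 3′ on the strand of the gene, for the 3 regulatory factors with an entry and for Mef2a, because these genes are among those called in repeated atrophy below. Capitals mark exact matches to the E-box (CANNTG, which reads the same on both strands) or to the MEF2 site, an AT-rich site of 10 bases that was searched by its usual consensus and is also its own reverse complement. No marked matches overlap.
Myog, chr13:48297326-48297475, plus strand: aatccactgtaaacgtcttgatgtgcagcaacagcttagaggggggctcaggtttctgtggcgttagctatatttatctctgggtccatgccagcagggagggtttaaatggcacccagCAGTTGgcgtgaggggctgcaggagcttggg
Myf6, chr7:44701314-44701463, minus strand: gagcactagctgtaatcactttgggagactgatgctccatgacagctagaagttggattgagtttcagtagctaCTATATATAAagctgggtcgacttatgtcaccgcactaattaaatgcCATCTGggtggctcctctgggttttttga
Myf5, chr7:44692639-44692788, minus strand: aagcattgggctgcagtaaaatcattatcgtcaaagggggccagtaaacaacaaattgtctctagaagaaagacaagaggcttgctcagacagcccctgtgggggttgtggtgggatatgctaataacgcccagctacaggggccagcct
Mef2a, chr1:130392163-130392312, minus strand: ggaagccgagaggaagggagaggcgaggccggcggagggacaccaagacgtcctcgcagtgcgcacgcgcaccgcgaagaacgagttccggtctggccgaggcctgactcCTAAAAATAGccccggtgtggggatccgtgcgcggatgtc
Myog held an E-box 31 bases before its start and, over the whole 250 bases upstream, 2 of them, and its closest stretch to the MEF2 site differed from it by 1 letter. Myf6 held both an E-box, 29 bases before its start, and a MEF2 site, 76 bases before it. Mef2a held a MEF2 site 40 bases before its start and no E-box, and Myf5 held neither. Over all 33469 promoter entries, 65.5% held an E-box in the 250 bases upstream, 2.96% held a MEF2 site and 26.6% held a stretch with at most 1 letter different from it. The entries of Mef2d and Pax7 held neither motif. A match describes the letters only, and no binding was measured.

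In control limbs the levels per length differed widely between these genes. Myf6 was highest, with a mean level of 134 ± 55.2 CPM per kb (SD, n = 9), followed by Myog with 39.6 ± 24.6, Myod1 with 32.3 ± 8.61 and Mef2d with 26.6 ± 6.34 CPM per kb. The SD intervals of Myog, Myod1 and Mef2d overlapped, so their order is not resolved. Mef2a (7.43 ± 1.44 CPM per kb), Mymk (3.49 ± 2.95), Myf5 (2.26 ± 1.38) and Pax7 (0.335 ± 0.273) were lower, and the interval of Mymk overlapped with those of Mef2a, Myf5 and Pax7. Myf6 had thus far more transcript per length than Myf5, its neighbour on the chromosome.

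First disuse raised 4 of 4 myogenic regulatory factors and Mymk, and left Pax7 and both MEF2 genes short of the threshold. In atrophy against control, 5 of the 8 genes were called and all 5 were higher, while 22.6% of all rows tested were called and 20.3% were called and higher. The median log2 fold change of the 8 genes was 1.37. After recovery 0 of 8 were called (7.73% of all rows), with 2 of 8 at an unadjusted p under 0.05, as were 25.1% of all rows. After repeated disuse 6 of 8 were called and all 6 were higher, against 34.3% of all rows called and 28.1% called and higher, and the median of the 8 genes was 1.72. All 3 comparisons use the same 9 control limbs. With the animal as a block, which pairs each left limb with its own right limb, the repeated atrophy count stayed at 6, beside 27.1% of rows, and the atrophy count went to 0 of 8. In that blocked fit 0 of all rows were called in atrophy, although 2678 had an unadjusted p under 0.05.

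**Figure D1:**
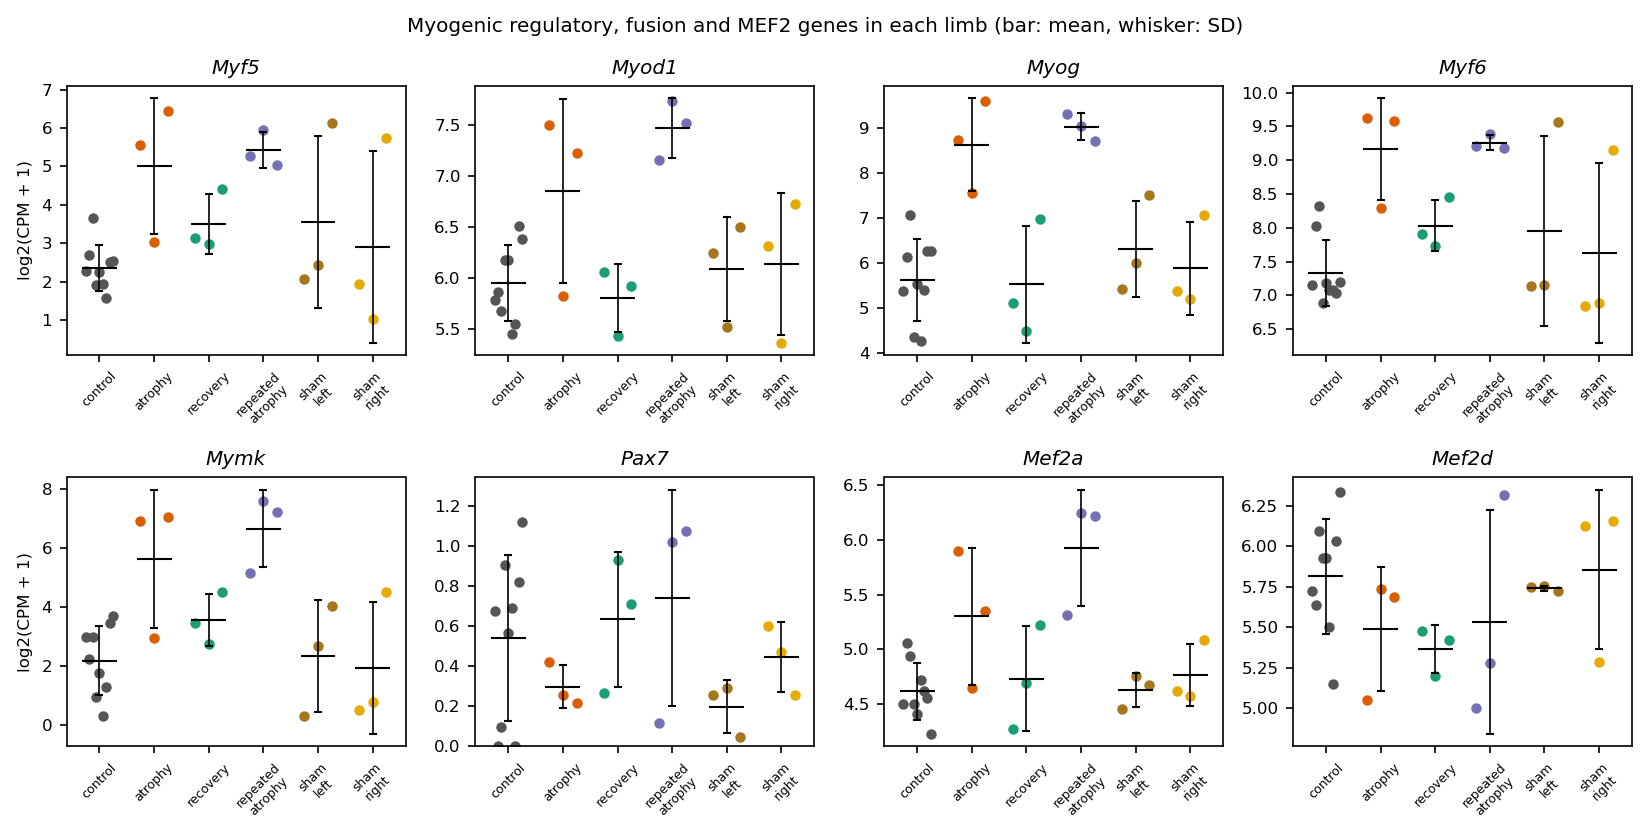
Level of the 8 genes in each of 24 limbs, as log2(CPM + 1) on the vertical axis of each panel, with the group on the horizontal axis. Points are limbs in order of replicate number, bars are group means and whiskers SDs, and the axes of the panels differ. The limbs of repeated atrophy lie above all 9 control limbs for Myf5, Myod1, Myog, Myf6, Mymk and Mef2a, 1 atrophy limb lies well below the other atrophy limbs for most of these genes, and the third limb of both sham groups is high for Myf5 and Myf6.

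Myf5, an early factor of satellite cells and myoblasts, was at 1.98 CPM in the lowest, 3.82 in the median and 11.6 in the highest control limb. The atrophy limbs 1, 2 and 3 had 45.7, 7.18 and 86.0 CPM, the recovery limbs 7.74, 6.92 and 20.1 CPM, and the repeated atrophy limbs 37.6, 60.8 and 32.02 CPM. Atrophy limb 2 lay inside the control range and the other two atrophy limbs far above it, recovery limb 3 also lay above it, and all repeated atrophy limbs did. Myf5 rose 6.21-fold in atrophy (log2 fold change 2.63 ± 0.52 SE, adjusted p = 0.00651, limma) and 8.28-fold in repeated atrophy (3.05 ± 0.52, adjusted p = 0.000415). The recovery value was 1.13 ± 0.52 (adjusted p = 0.186) and was not called.

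Myod1, which commits cells to the muscle lineage and is also made by nuclei of fast fibres, was at 42.7 CPM in the lowest, 57.3 in the median and 90.3 in the highest control limb. It had 181, 55.8 and 149 CPM in atrophy limbs 1 to 3, then 65.8, 42.2 and 59.6 CPM in recovery and 142, 212 and 182 CPM in repeated atrophy. Atrophy limb 2 was near the control median, recovery limbs spread around it, and the repeated atrophy limbs did not overlap with control. The rise was 1.87-fold in atrophy (log2 0.90 ± 0.29 SE, adjusted p = 0.0322, limma) and 2.86-fold in repeated atrophy (1.52 ± 0.29, adjusted p = 0.000785). After the trimmed mean rescaling the atrophy value was 0.54 with an adjusted p of 0.181, so the Myod1 call in atrophy rests on the deposited scale.

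Myog, the differentiation factor, had the clearest separation of the regulatory factors. Control limbs ran from 18.2 through a median of 45.0 to 132 CPM, the highest being control limb 3. The atrophy limbs had 424, 187 and 782 CPM, the recovery limbs 33.6, 21.2 and 124 CPM and the repeated atrophy limbs 637, 526.3 and 420 CPM. Every atrophy limb and every repeated atrophy limb was above every control limb, and every recovery limb was inside the control range. Myog rose 8.07-fold in atrophy (log2 3.01 ± 0.56 SE, adjusted p = 0.00597, limma) and 10.6-fold in repeated atrophy (3.40 ± 0.56, adjusted p = 0.000290), while the recovery value was -0.10 ± 0.56 (adjusted p = 0.937). Its change against control was also large beside Myod1. The ratio of Myog to Myod1 CPM was 0.269 to 2.64 in control limbs, 2.35 to 5.26 in atrophy and 2.30 to 4.49 in repeated atrophy. Both of the latter ranges overlapped with control, whose highest ratio was that of control limb 3.

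Myf6, the most abundant factor of the adult fibre, had 117, 142 and 320 CPM in the lowest, median and highest control limb. Control limbs 2 (259 CPM) and 3 (320 CPM), both from atrophy animals, stood above the other 7. Atrophy limbs had 789, 314 and 761 CPM, recovery limbs 240, 212 and 350 CPM and repeated atrophy limbs 592, 667 and 578 CPM. Myf6 rose 3.57-fold in atrophy (log2 1.84 ± 0.30 SE, adjusted p = 0.00506, limma) and 3.80-fold in repeated atrophy (1.93 ± 0.30, adjusted p = 0.000215), and its recovery value of 0.70 ± 0.30 did not pass (adjusted p = 0.149). Per length it remained the highest of the 8 genes in atrophy, at 489 CPM per kb against 321 for Myog, and in repeated atrophy, at 482 against 364 CPM per kb. Because Myf5 moved more than Myf6, the ratio of Myf6 to Myf5 CPM was 27.5 to 67.7 in control limbs and 10.97 to 18.1 in repeated atrophy limbs, with no overlap. The ratio in atrophy limbs, 8.85 to 43.7, overlapped with control, and in sham 3, without TTX, it was 11.05 on the left and 10.95 on the right.

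Mymk, the fusogen myomaker, changed most in fold. Control limbs ran from 0.245 CPM, which is 6 reads, through a median of 3.76 to 11.9 CPM. Atrophy limbs had 120, 6.69 and 132 CPM, recovery limbs 9.97, 5.65 and 21.7 CPM and repeated atrophy limbs 35.0, 191 and 150 CPM. Atrophy limb 2 lay within the control range and repeated atrophy limb 1 was the lowest of its group, yet above every control limb. Mymk rose 10.96-fold in atrophy (log2 3.45 ± 0.82 SE, adjusted p = 0.0101, limma) and 22.3-fold in repeated atrophy (4.48 ± 0.82, adjusted p = 0.000626). In recovery limb 3 it was above the control range, and the recovery value was 1.38 ± 0.82 (adjusted p = 0.311).

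Pax7, the transcription factor that defines satellite cells, was near the floor of the measurement. It had 0, 0.594 and 1.17 CPM in the lowest, median and highest control limb, or 0 to 30 reads. The atrophy limbs had 0.340, 0.192 and 0.163 CPM, the recovery limbs 0.202, 0.9005 and 0.632 CPM and the repeated atrophy limbs 0.0837, 1.03 and 1.11 CPM, all within the control range. Its log2 fold changes of -0.24, 0.09 and 0.20 against control had adjusted p-values of 0.505, 0.855 and 0.578 (limma), and with the largest SE of 0.24 a change was not detectable at this depth.

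Mef2a and Mef2d, partners of the myogenic factors, behaved unlike each other. Mef2a was at 17.7, 22.4 and 32.3 CPM in the lowest, median and highest control limb, at 58.8, 24.1 and 39.9 CPM in atrophy, at 18.3, 24.9 and 36.4 CPM in recovery and at 38.9, 75.05 and 73.6 CPM in repeated atrophy. It rose 2.49-fold in repeated atrophy (log2 1.31 ± 0.26 SE, adjusted p = 0.000942, limma), where its limbs did not overlap with control. The atrophy value, 0.69 ± 0.26, missed the threshold (adjusted p = 0.0595) and was 0.33 after rescaling. Mef2d, at 34.4 to 79.9 CPM (median 60.0) in control limbs, had 32.2, 52.3 and 50.4 CPM in atrophy, 43.5, 35.8 and 41.9 CPM in recovery and 31.1, 37.9 and 78.7 CPM in repeated atrophy. These ranges overlap in every group, its log2 fold changes of -0.32, -0.45 and -0.28 were not called (adjusted p = 0.376, 0.282 and 0.433), and after rescaling they were -0.68, -0.46 and -0.66 and again were not called.

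**Figure D2:**
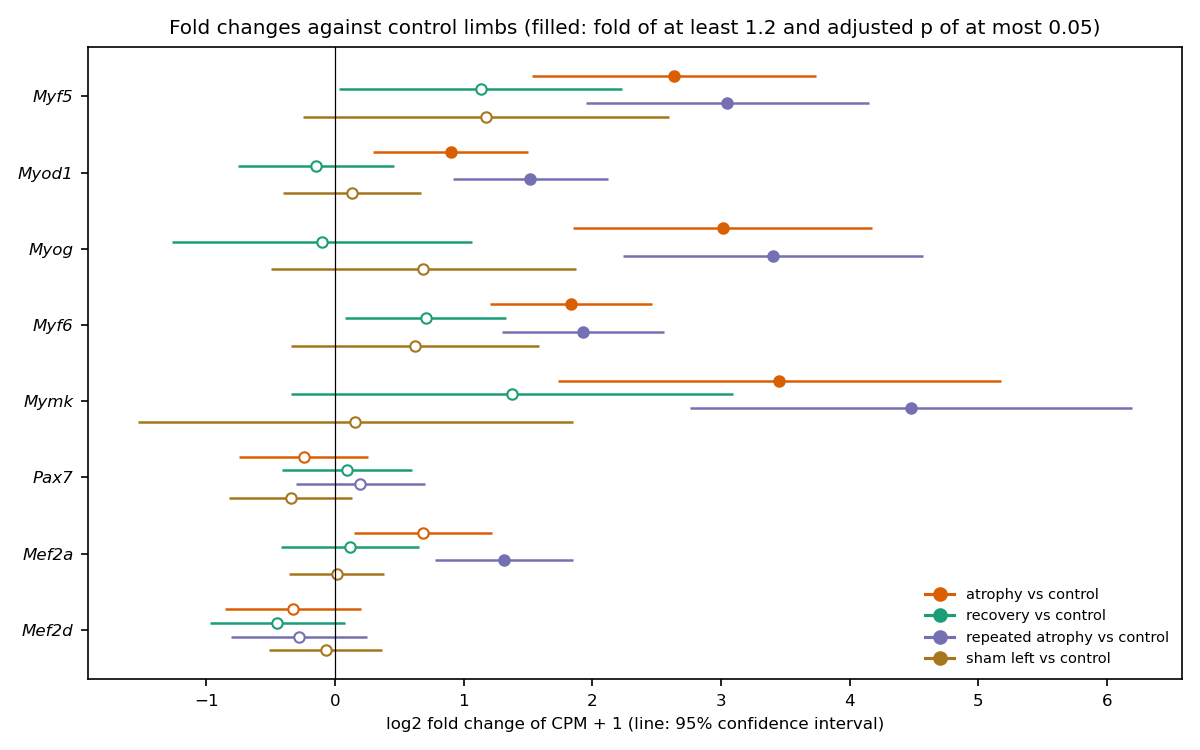
Log2 fold change of CPM + 1 against the 9 control limbs for each of the 8 genes, on the horizontal axis, with its 95% confidence interval as a line. Filled points passed the fold and adjusted p thresholds. The filled points are 5 for atrophy, 6 for repeated atrophy and none for recovery or the sham left limbs. The intervals of Pax7 and Mef2d include 0 throughout, and the values of Mef2d lie below 0.

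Counted by separation alone, every atrophy limb was above every control limb for 1 of the 8 genes, Myog, while 4.75% of all rows tested had that pattern. In recovery it was 0 of 8 against 5.57% of rows, and in repeated atrophy 6 of 8 (Myod1, Myog, Myf5, Myf6, Mymk and Mef2a) against 16.5% of rows. The smaller count in the first disuse came from atrophy limb 2, which was at 55.8 CPM for Myod1, 6.69 for Mymk, 7.18 for Myf5, 314 for Myf6 and 24.1 for Mef2a. Without that animal 6 of 8 genes were called in atrophy, Mef2a being added (adjusted p = 0.00570). In recovery the count was then 1 of 8, for Myf6 (adjusted p = 0.0425), beside 10.6% of rows. Without atrophy animal 1 the atrophy count was 0 of 8, with adjusted p-values from 0.125 for Myf6 to 0.345 for Myod1 among the 5 genes, and 1 of 13993 rows was called at all. Without atrophy animal 3 it was 3 of 8 beside 13.1% of rows, and without animal 2 34.6% of rows were called. The repeated atrophy count stayed at 6 of 8 whichever animal was left out.

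The blocked values of the first disuse bear on the same point. With the animal as a block the log2 change in atrophy was 2.44 for Myog, 2.13 for Myf5, 1.33 for Myf6 and 2.90 for Mymk, each with an adjusted p of 0.151, and 1.08 for Myod1 (adjusted p = 0.171). In repeated atrophy the blocked values were 3.06 for Myog, 3.21 for Myf5, 2.16 for Myf6, 3.86 for Mymk, 1.32 for Myod1 and 1.46 for Mef2a, with adjusted p-values from 0.00351 to 0.0135.

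Recovery was then set against the silenced limbs directly. Compared with atrophy, 3 of 8 genes were called in recovery and all 3 were lower, against 17.9% of all rows called and 14.5% called and lower. Myog fell by 3.11 on the log2 scale (SE 0.68, adjusted p = 0.00922, limma), Myf6 by 1.13 (SE 0.37, adjusted p = 0.0402) and Myod1 by 1.05 (SE 0.35, adjusted p = 0.0468). Myf5 (-1.50, adjusted p = 0.107) and Mymk (-2.08, adjusted p = 0.154) did not pass. With rescaling only Myog was called of the 8, beside 10.7% of rows, and with the animal as a block 0 of 8 genes and 2 of 14031 rows were, the Myog value then being -1.63 (adjusted p = 0.638). The count was 6 without atrophy animal 2, beside 26.5% of rows, and 0 without recovery animal 2, beside 2.84%. It was 1 without any one of atrophy animals 1 and 3 (7.31% and 8.90% of rows), recovery animal 1 (3.18%) or repeated atrophy animals 1, 2 and 3 (18.003%, 13.99% and 16.96%).

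The second disuse raised the genes again from the recovery level. In repeated atrophy against recovery, 6 of 8 were called and all 6 were higher, with 27.2% of all rows called and 21% called and higher. Myog rose 11.4-fold (log2 3.51 ± 0.68 SE, adjusted p = 0.00231, limma), Mymk 8.57-fold (3.10 ± 1.00, adjusted p = 0.0290) and Myf5 3.78-fold (1.92 ± 0.64, adjusted p = 0.0340). Myod1 rose 3.17-fold (adjusted p = 0.00353), Myf6 2.33-fold (adjusted p = 0.0199) and Mef2a 2.30-fold (adjusted p = 0.00979). With the animal as a block, where the test compares differences within animals, 0 of 8 and only 12 of 14031 rows were called, and the log2 values were 1.31 for Mymk, 2.25 for Myog, 1.74 for Myf5, 1.46 for Myod1, 1.17 for Myf6 and 1.28 for Mef2a. The count was 2 without recovery animal 1 (15.1% of rows) or without repeated atrophy animal 2 (17.4%), and 3 without recovery animal 2 (13.2%). After rescaling Myf5 was not called (1.57, adjusted p = 0.0602).

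The second disuse did not differ from the first by this test in any of the 8 genes, among 0.0356% of rows called. None of the 8 had an unadjusted p under 0.05 there. The largest value was that of Mymk, 1.02 with a 95% interval from -1.08 to 3.13 on the log2 scale, and that of Myog was 0.39 (-1.04 to 1.82), so the intervals include differences in either direction. Without atrophy animal 2 these values were -0.33 and -0.15.

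In the sham left limbs, compared with control, 0 of 8 genes and 0% of rows were called in limma, with 0 of 8 and 1904 rows at an unadjusted p under 0.05. The limbs of sham 1, 2 and 3 had 3.22, 4.43 and 68.6 CPM of Myf5 on the left and 2.86, 1.06 and 52.0 CPM on the right. For Myf6 they had 139, 142 and 759 CPM on the left and 113, 117 and 570 CPM on the right. Both limbs of sham 3 thus had Myf5 and Myf6 within the range of the silenced limbs and above every control limb, without TTX, while the other 2 sham animals lay in or below the control range. Myog in sham 3 was 180 CPM on the left and 134 on the right, with 132 CPM in the highest control limb. Mymk was at 15.5 and 21.7 CPM, above the highest control limb (11.9) and above the lowest atrophy limb (6.69), and Mef2a at 24.5 and 33.0 CPM.

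The sham 3 animal stood apart in many other genes as well. Among 10136 symbols of at least 1 CPM on average, both its limbs were above all other 13 limbs without TTX in 1962 (19.4%) and below them in 454 (4.48%). The same counts were 1140 and 82 for sham 1 and 73 and 68 for sham 2. Trim63, a ubiquitin ligase of wasting muscle, was looked at after its values were seen. It had 4029 CPM in the left and 2957 in the right limb of sham 3, against 127 to 1925 CPM in the control limbs. The control limb with the most Trim63, control limb 3, was also the one with the most Myf5, Myf6 and Myog of the 9. Other genes were looked at in the same way. Fbxo32 (103 and 107 CPM) and Gadd45a (616 and 356) were above every control limb in both limbs of sham 3. Runx1 was so in the left limb only (25.6) and Myh3 in the right limb only (84.8). The acetylcholine receptor subunits Chrna1 (71.7 and 87.7), Chrnd (90.2 and 97.3) and Chrng (3.03 and 6.12) were within the control range. The part of these differences in the members' values was not tested. Without sham limb 3, the log2 fold change of sham left against control went from 1.17 to -0.11 for Myf5 and from 0.62 to -0.19 for Myf6.

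Against the sham left limbs as the reference, 0 of 8 genes were called in atrophy, where 0% of rows were, and 0 of 8 in recovery, where 0.0144% were. At an unadjusted p under 0.05 there were 2 of 8 genes and 1456 rows in atrophy and 0 of 8 genes and 2607 rows in recovery. Without atrophy limb 2 the atrophy count was 1, beside 2.46% of rows. In repeated atrophy 0 of 8 were called against 2.88% of rows, with 6 of 8 at an unadjusted p under 0.05 beside 21.2% of rows. The 4 lowest adjusted p-values were 0.0513 for Myog (log2 2.72 ± 0.67 SE), 0.0612 for Mymk (4.32 ± 1.14), 0.0643 for Mef2a (1.30 ± 0.35) and 0.0760 for Myod1 (1.38 ± 0.39), all from limma. Without sham limb 3, where 4.95% of rows were called, the genes called were Myog, Myf5, Myf6 and Mymk. Without atrophy limb 2, which shares the estimate of spread, 6.68% of rows were called, and of the 8 genes Myog, Mymk, Mef2a and Myod1. The count was 1 without atrophy limb 1 (4.50% of rows) and 1 without recovery limb 3 (2.02%).

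Within animals, the left limb exceeded the right for Myog, Myf5, Myf6 and Mymk in 3 of 3 animals of the atrophy group and 3 of 3 of the repeated atrophy group. Mean differences in repeated atrophy were 3.06 ± 0.77 for Myog, 3.21 ± 0.63 for Myf5, 2.16 ± 0.18 for Myf6, 3.86 ± 0.30 for Mymk and 1.32 ± 0.25 for Myod1 (log2 units, SD, n = 3). In atrophy the same means had wider spreads, such as 2.90 ± 1.91 for Mymk and 1.33 ± 1.10 for Myf6. In the recovery animals the left limb was higher in 3 of 3 for Myf5 (mean 1.47 ± 0.90), Myf6 (0.98 ± 0.41) and Mymk (2.55 ± 1.61), but in 2 of 3 for Myog and 1 of 3 for Myod1. The sham animals, without TTX, also had the left limb higher in 3 of 3 for Myog (0.43 ± 0.38), Myf5 (0.64 ± 0.67) and Myf6 (0.32 ± 0.08), by smaller means, and in 1 of 3 for Mymk. None of these recovery differences passed in the blocked fit, where the adjusted p was 0.209 for Myf5, 0.189 for Myf6 and 0.131 for Mymk. In recovery animal 3 the left limb had 21.7 CPM of Mymk and 124 CPM of Myog and the right limb 0.245 and 18.2 CPM. For Mef2d the left limb was higher in 0 of 3 recovery animals (mean -0.42 ± 0.33) and 0 of 3 repeated atrophy animals (-0.31 ± 0.39). Neither difference passed in the blocked limma fit (adjusted p = 0.302 and 0.298).

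**Figure D3:**
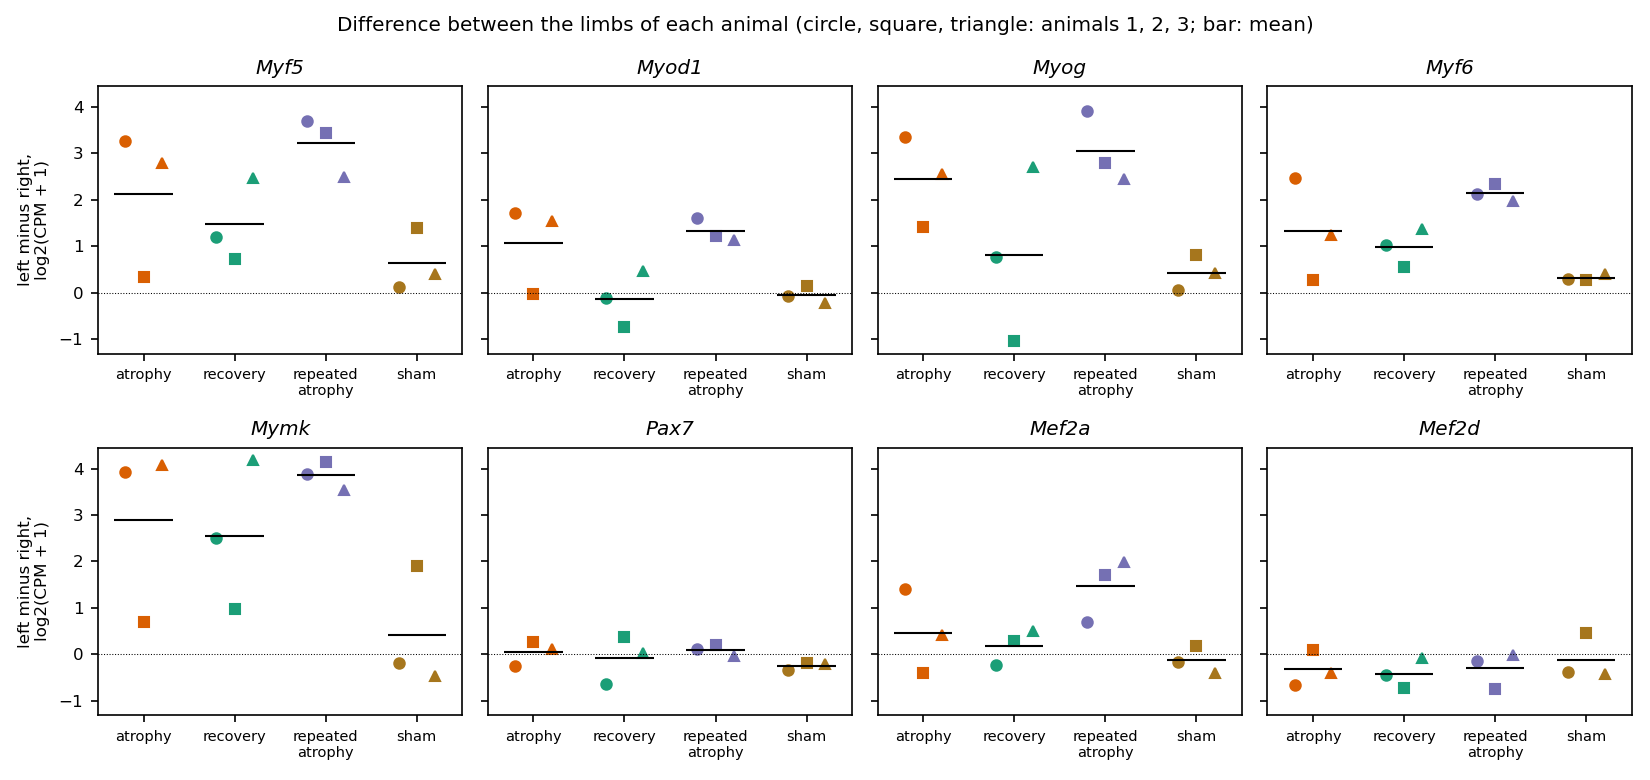
Difference between left and right limb of the same animal, in log2(CPM + 1), for the 8 genes in the 3 TTX groups and the sham animals. Each symbol is 1 animal and each bar the mean of 3, and the dotted line marks no difference. Repeated atrophy animals cluster at high differences for Mymk and Myf6, whereas atrophy and recovery animals are spread out, and Pax7 and Mef2d lie around or below the line.

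Several of the genes also varied together. Over the 24 limbs, Pearson's r of log2(CPM + 1) was 0.97 between Myf5 and Myf6, 0.88 between Myog and Mymk and 0.80 between Myod1 and Myog, while Mef2d had values between -0.21 and 0.27 with the other 7. These limbs include 12 pairs from the same animals and groups that differ in level, so r is a description. After the group means were removed, r was 0.95 for Myf5 with Myf6, 0.79 for Myog with Mymk and 0.48 for Myod1 with Myog, and over the 22 limbs without sham 3 it was 0.96, 0.88 and 0.80.

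**Figure D4:**
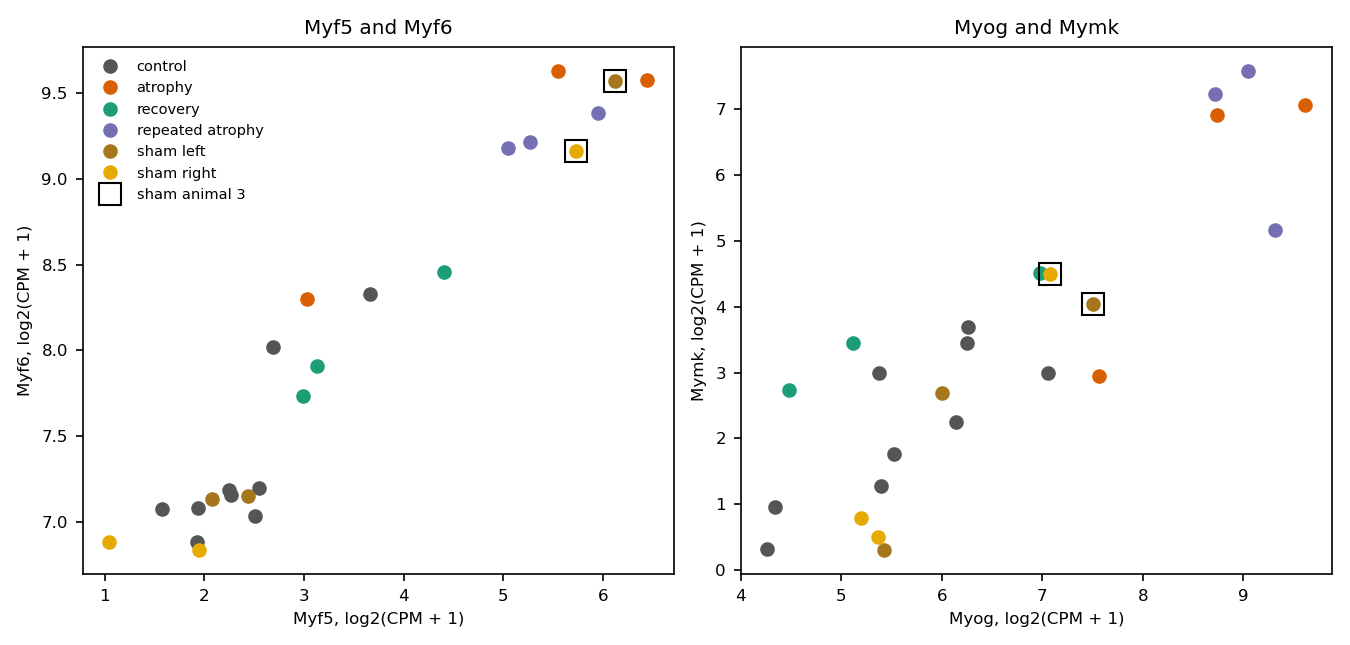
Myf6 against Myf5 on the left and Mymk against Myog on the right, each as log2(CPM + 1) in 24 limbs coloured by group, with squares around both limbs of sham 3. Myf5 and Myf6 lie along a single line that holds sham 3 at its upper end (r = 0.97), and Mymk rises with Myog (r = 0.88), with sham 3 in the middle of that range.

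Among 10135 other symbols of at least 1 CPM on average, those most like each gene over the 24 limbs were listed by r. For Mymk they were Chrnd (0.97), Chrna1 (0.96), both subunits of the acetylcholine receptor of muscle, and Rab15 (0.95). Myog was most like Ninj1 (0.98), Otulin (0.97) and Runx1 (0.97), the last a transcription factor of denervated muscle. Myf5 and Myf6 each had the other first (0.97) and then Cdc25a, a cell cycle phosphatase (0.94 and 0.96), followed by Plp2 (0.93) for Myf5 and Eef1b2 (0.96) for Myf6. Myod1 was most like Cdc42ep4 (0.93), Aldh3a2 (0.91) and Tuba1b (0.91), Mef2a most like Uso1 (0.95), Gpkow (0.94) and Cse1l (0.94), and Mef2d most like Irf2bpl (0.91), Prrc2a (0.89) and Jade2 (0.89). Pax7 was under 1 CPM on average in every group and was not compared.

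Genes known as targets of the myogenic factors were then counted from a list of 24, beside 20.3% of all rows called and higher in atrophy and 28.1% in repeated atrophy. The shares called and lower were 2.33% and 6.24%. In atrophy 10 rose and 0 fell, with a median log2 fold change of 1.21 over the list beside 0.22 over all rows, and in repeated atrophy 13 rose and 2 fell, with a median of 1.499 beside 0.20. After rescaling the counts higher and lower were 7 and 0 in atrophy, beside 4.74% and 4.90% of all rows. They were 12 and 3 in repeated atrophy, beside 13.2% and 12.1%. In the blocked fit they were 0 and 0 in atrophy. In repeated atrophy they were then 15 and 2, beside 21.5% and 5.66% of all rows. The receptor subunit Chrna1 went from 49.6 ± 25.9 CPM in control (SD, n = 9) to 479 ± 436 in atrophy and 1073 ± 443 in repeated atrophy (n = 3 each, log2 2.78 and 4.49). Chrnd went from 58.7 ± 38.1 to 462 ± 343 and 983 ± 347 CPM (2.78 and 4.27). The embryonic subunit Chrng was called in repeated atrophy (4.15, adjusted p = 0.000686, limma) and missed in atrophy (2.07, adjusted p = 0.0602). Cdkn1a, the cell cycle inhibitor p21, rose from 102 ± 46.7 to 647 ± 467 and 1036 ± 133 CPM (2.52 and 3.53), and Tnnt2, the cardiac troponin T found in immature fibres, rose by 2.95 in atrophy and 2.48 in repeated atrophy on the log2 scale.

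In recovery 6 genes of this list rose and 1 fell, beside 4.4% of all rows called and higher and 3.33% called and lower. The list median was 0.62 beside 0.02 over all rows. With the animal as a block 3 rose and 0 fell, beside 0.0428% of rows higher. Without recovery animal 1 there were 3 higher, beside 0.887% of rows, and without recovery animal 3 also 3, beside 1.72%. The cardiac actin Actc1, made by developing fibres, rose from 35.7 ± 14.9 to 502 ± 112 CPM (log2 3.88, adjusted p = 0.00154, limma), the neonatal myosin Myh8 from 16.3 ± 5.24 to 232 ± 31.5 CPM (3.79, adjusted p = 0.000208) and the embryonic myosin Myh3 from 25.8 ± 15.4 to 165 ± 74.6 CPM (2.80, adjusted p = 0.0328). The embryonic light chain Myl4 also rose (1.77, adjusted p = 0.000208, but 0.0638 with the animal as a block), as did Casq2, the calcium store protein calsequestrin (1.57), and the receptor subunit Chrne (0.88), and Cdh15, the adhesion protein M-cadherin of satellite cells, fell by 1.09 (adjusted p = 0.0155). These genes were called at a time when 0 of the 4 regulatory factors were. In atrophy the Actc1 value was 0.74 (adjusted p = 0.386) and that of Myl4 was 0.22 (adjusted p = 0.469).

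**Figure D5:**
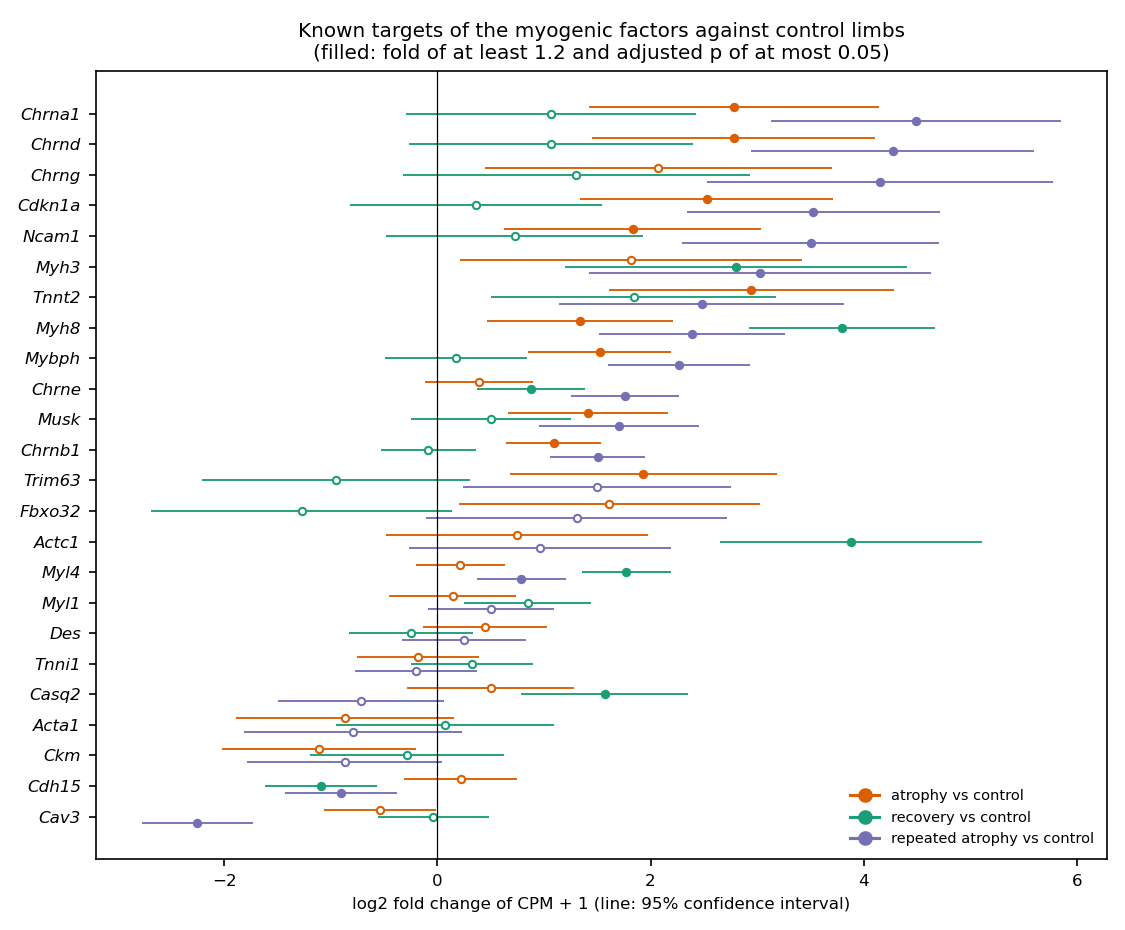
Log2 fold change of CPM + 1 against control, on the horizontal axis, for the 24 listed targets of the myogenic factors, ordered by their value in repeated atrophy, with 95% confidence intervals as lines. Filled points passed the thresholds. Cdkn1a, Chrna1 and Chrnd are filled in atrophy and repeated atrophy and open in recovery, whereas Actc1 is filled in recovery alone, at 3.88.

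Among listed targets of MEF2, more genes fell than rose in both silenced groups. Of 14 tested, 1 rose and 3 fell in atrophy, 0 were called in recovery and 2 rose and 6 fell in repeated atrophy, beside 2.33% of all rows called and lower in atrophy and 6.24% in repeated atrophy (20.3% and 28.1% called and higher), with medians of -0.41, -0.15 and -0.75. Nr4a1, an activity-dependent nuclear receptor, fell by 2.05 and 2.19 on the log2 scale in atrophy and repeated atrophy, and Myoz1, a Z-disc protein of fast fibres, fell by 1.54 and 1.83. Jun rose in both (0.95 and 1.11), but in atrophy its adjusted p after rescaling was 0.0597. The counts of genes higher and lower after rescaling were 0 and 4 in atrophy, beside 4.74% and 4.90% of all rows. In repeated atrophy they were 1 and 7, beside 13.2% and 12.1%. With the animal as a block they were 0 and 0 in atrophy, where 0% of rows were called. In repeated atrophy they were then 2 and 5, beside 21.5% and 5.66% of rows. Slc2a4, the insulin-responsive glucose transporter, fell by 0.64 in atrophy, and Ppargc1a, a coactivator of mitochondrial genes, fell by 1.17 in repeated atrophy.

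Partners and inhibitors were less uniform. Of 12 E proteins and coactivators tested, 2 rose in atrophy and 3 in repeated atrophy, shares below the 20.3% and 28.1% of all rows called and higher. They included Prmt5, an arginine methyltransferase (0.78 and 1.06), and Six4, a homeodomain factor (0.78 and 0.86). After rescaling 0 of 12 were called in atrophy, beside 9.64% of all rows. In repeated atrophy 1 rose and 2 fell, beside 13.2% of rows higher and 12.1% lower. In recovery 1 fell, beside 3.33% of rows called and lower. It was Carm1, another arginine methyltransferase (by 0.89). Of 20 inhibitors of the myogenic factors and MEF2, 3 rose in atrophy and 7 rose and 2 fell in repeated atrophy. Of all rows, 20.3% and 28.1% were called and higher in these comparisons, and 6.24% were called and lower in repeated atrophy. The inhibitor of DNA binding Id3 rose from 13.4 ± 3.30 to 39.6 ± 2.63 CPM in repeated atrophy (log2 1.52, adjusted p = 0.000182, limma), Id4 by 1.71 and the class IIa deacetylase Hdac4 by 1.67. After rescaling the inhibitors numbered 0 higher and 1 lower in atrophy, beside 4.74% and 4.90% of all rows. In repeated atrophy they numbered 3 higher and 4 lower, beside 13.2% and 12.1%. In recovery Hdac5, another class IIa deacetylase, fell by 0.86.

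Of 27 adhesion and cytoskeletal genes of myoblast fusion, 4 rose and 0 fell in atrophy and 5 rose and 2 fell in repeated atrophy, with list medians of 0.07 and 0.06. As deposited, the share that rose was below that of all rows in both (20.3% and 28.1%). In repeated atrophy 6.24% of all rows were called and lower. Dysf, a membrane repair protein, rose in both (1.16 and 1.73) and the small GTPase Cdc42 rose in both (0.90 and 0.94), as did Itgb1 in atrophy (0.80). Cav3, the muscle caveolin, fell by 2.25 in repeated atrophy. After rescaling the counts of fusion genes higher and lower were 1 and 0 in atrophy, beside 4.74% and 4.90% of all rows. They were 5 and 8 in repeated atrophy, where 13.2% of all rows were then higher and 12.1% lower. Both shares were thus above those of all rows in repeated atrophy. In recovery the neural cadherin Cdh2 rose (0.86) and Cdh15 fell. With the animal as a block, where 9 of 14031 rows were called in recovery, these were not called (adjusted p = 0.165 and 0.187), and neither were Carm1 (0.181) and Hdac5 (0.206) there, nor Ppargc1a in repeated atrophy (0.0676). Mymk, at 4.48 in repeated atrophy, rose by more than any called gene of this list, where Dysf had the largest called rise.

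The list counts moved when single animals were left out. Without atrophy animal 1, where 1 of all 13993 rows was called in atrophy, 0 genes of the 5 lists (targets of the myogenic factors, targets of MEF2, coactivators, inhibitors and fusion genes) were. Without atrophy animal 3 the targets of the myogenic factors numbered 7 higher in atrophy, beside 11.9% of all rows. Without atrophy animal 2 the MEF2 targets numbered 6 lower in atrophy, beside 3.85% of rows. The inhibitors higher in repeated atrophy numbered 4 without repeated atrophy animal 2, beside 14.5% of rows. They numbered 4 without repeated atrophy animal 3, beside 19.7%. The coactivators higher numbered 1 without repeated atrophy animal 2, beside the same 14.5% of rows.

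Markers of the cells that could carry these transcripts were counted beside them. Of 17 satellite cell markers, which include Pax7, 2 rose and 0 fell in atrophy, 1 rose and 2 fell in recovery and 2 rose and 2 fell in repeated atrophy, so that the share higher in atrophy and repeated atrophy was below the 20.3% and 28.1% of all rows. In recovery 4.4% of all rows were called and higher and 3.33% called and lower, and in repeated atrophy 6.24% were called and lower. With the animal as a block 0 satellite cell markers were called in atrophy and recovery. In repeated atrophy 3 then rose and 2 fell, beside 21.5% of rows higher and 5.66% lower. The summed level of the satellite cell markers ranged over 163 to 337 CPM in control limbs. It was 237 to 558 CPM after the first disuse, 138 to 183 CPM after recovery, 268 to 296 CPM after repeated disuse and 211 to 437 CPM in the sham left limbs, and Pax7 itself was at or under 1.17 CPM in every limb. The sum in atrophy included Sdc4, a syndecan also made by other cells (38.4 ± 22.1 CPM in control, 140 ± 94.6 in atrophy). Of 17 proliferation genes 2 rose in atrophy, 4 in recovery and 2 in repeated atrophy, beside 20.3%, 4.4% and 28.1% of all rows called and higher. After rescaling 0, 5 and 0 were called higher, beside 4.74%, 6.26% and 13.2% of rows. With the animal as a block these counts were 0, 0 and 2, beside 0%, 0.0428% and 21.5% of rows. The sum of the proliferation genes was 28.1 to 70.2 CPM in control and 28.7 to 42.3 CPM in repeated atrophy, but 71.6 to 237 CPM in the sham left and 92.0 to 209 CPM in the sham right limbs. Tpx2, a spindle assembly factor, made up 67.9% of this sum on average in the sham left, 71.0% in the sham right and 59.6% in the control limbs, and the other 16 genes summed to 13.5 to 25.7 CPM in control, 23.1 to 98.0 CPM in sham left and 16.2 to 98.8 CPM in sham right limbs. Their part in the values of the members was not tested.

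Markers of other cell types were counted in the same way. Of 11 fibroblast and fibro-adipogenic markers 8 rose in recovery, with a sum of 1679 to 3009 CPM against 519 to 1224 CPM in control, and of 12 macrophage and leukocyte markers 6 rose, with 202 to 456 CPM against 64.3 to 201 CPM, beside 4.4% of all rows called and higher. After rescaling 9 and 11 were higher, beside 6.26% of rows. In the blocked fit 0 of either list, and 0 endothelial markers, were called in recovery. As deposited, 0 of both lists were called in atrophy and repeated atrophy. In atrophy limbs 1, 2 and 3 the macrophage and leukocyte sum was 359, 98.0 and 208 CPM. The fibroblast and fibro-adipogenic sum in atrophy was 644 to 965 CPM. The part of these sums in the members' values was not tested. The summed myofibre markers ranged over 239117 to 315451 CPM in control limbs and 122786 to 249857 CPM after the first disuse. They had 258374 to 279679 CPM after recovery and 148465 to 186063 CPM after repeated disuse. Of these 15 markers 3 were lower in atrophy, and 1 was higher and 4 were lower in repeated atrophy. Of all rows, 2.33% were called and lower in atrophy, 3.33% in recovery and 6.24% in repeated atrophy, where 28.1% were called and higher. Endothelial markers had 2 of 10 lower in recovery and 1 in repeated atrophy, and Schwann cell markers 1 of 9 lower in atrophy. Pericyte and adipocyte markers had 0 called in the 3 comparisons. After rescaling 1 endothelial marker was lower in atrophy and 7 in repeated atrophy, and of 8 pericyte markers 1 and 2. In that setting 4.90% of all rows were lower in atrophy and 12.1% in repeated atrophy. With the animal as a block 2 pericyte markers were lower in repeated atrophy, beside 5.66% of rows.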

How the data were processed

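TA mRNA of 12 aged rats, both limbs, was sequenced in 24 libraries. The authors removed contaminant reads with Bowtie2 2.2.5, aligned with STAR to rn7 and processed the reads in Partek, and DESeq2 is also named in the submitters' processing notes; the counting step and annotation are not given in the sources used here. Per the values, the table deposited by the authors holds CPM, since each column adds up to 1000000. The design had assumed median of ratios values, and the tests for normalized values were kept. Of 27 value columns, 3 matched no sample and were not used.

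Groups were taken from the labels of condition, limb and time. Of 14271 rows, 28 exact duplicates were dropped. Depth was read from the step between low values (18.9 to 30.9 times 1000000 reads), and 89.8% to 91.5% of the low values of a library were whole multiples of it within 0.1 step, so counts were not treated as recovered. All 98 member values under 1000 reads were whole within 0.1 read. Rows above 0 in at least 3 fitted samples were tested (14031 rows in the 18 limbs of the TTX animals, 13822 for sham against control, 13883 for the 12 left limbs) on log2(CPM + 1) with limma 3.58.1 (R 4.3.3), intensity trend and Benjamini-Hochberg adjustment, after a test on simulated data. Other steps used Python 3.11.15 with pandas 2.3.3, numpy 2.4.6 and matplotlib 3.10.9. Replicates are separate animals.

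The limbs of an animal are paired by the labels. The mean correlation of their deviations from the group means was 0.27 over 12 animals (0.12 over the TTX animals, negative in 3, and 0.74 over the sham animals). The text names all members with a row, and in each list at most 4 called genes per comparison with the largest fold and at least 1 CPM in a group. As exceptions, every called target of the myogenic factors is named in recovery, and some genes named for 1 comparison are also given for another. Members and lists were chosen with earlier results of these data known. Trim63 and the genes named beside it for sham 3 were looked at there after their values were seen. Listed symbols with no row were left out, 1 further target of the myogenic factors is not reported here, and proteins, methylation and human data were not analysed here.

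Alternatives were pseudocounts of 0.1 and 10, trimmed mean, median of ratios and quantile scaling, a mean of at least 1 CPM or no filter, no trend, robust hyperparameters, a fold of at least 1.5, rows summed per symbol, 12 right limbs as control, the animal as a fixed or random block, and leaving out each animal. Promoter sequences came from RefSeq (GRCr8).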

Additional observations from a re-analysis of the deposited data

Results flagged for a closer look

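The right limbs of the sham animals were in no tested comparison of the main analysis. In the right limb of sham 3, 6 of the 8 genes were above the highest of the 9 control limbs: Myf5 (52.0 CPM against 11.6), Myf6 (570 against 320), Mymk (21.7 against 11.9), Myod1 (105 against 90.3), Myog (134 against 132) and Mef2a (33.0 against 32.3). Of all 13822 rows tested for sham against control, 30.6% were above every control limb in that limb. The margin was wide for Myf5, Myf6 and Mymk and narrow for Myod1, Myog and Mef2a. No right limb of sham 1 or sham 2 was above the highest control limb for any of the 8 genes, beside 25.6% of rows for sham 1 and 4.36% for sham 2. In the 8 sets of 9 control values tested for an isolated highest or lowest limb on the log2 scale, none passed Dixon's 95% value of 0.493, and chance alone flags about 1 set in 20.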

How the results depend on the processing

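The counts of called genes against control kept within 1.5 times of their values under every setting except those named here and in the report. Under the replicate block with the animal as a fixed term the count was 0 of 8 in atrophy against control, 0 in recovery against atrophy and 0 in repeated atrophy against recovery, and the block changed no other count beyond that. In these 3 comparisons 0, 2 and 12 of 14031 rows were called under the block. Recovery against atrophy had 1 of 8 called under trimmed mean rescaling (10.7% of rows), 1 under median of ratios rescaling, 1 under quantile normalization and 1 with 12 right limbs as control. Repeated atrophy against recovery had 3 under quantile normalization. Repeated atrophy against sham left had 3 under trimmed mean (4.37% of rows) and 3 under median of ratios rescaling, and 4 with a mean of at least 1 CPM (665 of 10708 rows). It had 1 each under quantile normalization, a pseudocount of 0.1, robust hyperparameters and rows summed per symbol. The shares of all rows under the other settings named here are not given. The cause of these changes in count was not tested.

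With each animal left out in turn, the count ranged from 0 to 6 in atrophy against control, 0 to 1 in recovery against control, 6 to 6 in repeated atrophy against control, 0 to 6 in recovery against atrophy, 2 to 6 in repeated atrophy against recovery, 0 to 1 in atrophy against sham left and 0 to 4 in repeated atrophy against sham left. Values that changed sign belonged to genes that were not called. Under the replicate block Pax7 was 0.0415 in atrophy and -0.0862 in recovery against control, and Myog was 0.81 in recovery (log2 units). Leaving out animals, recovery against control ranged from -0.27 to 0.0664 for Myod1, -0.998 to 0.41 for Myog, -0.0507 to 0.32 for Pax7 and -0.12 to 0.33 for Mef2a. Repeated atrophy against atrophy ranged from -0.15 to 0.88 for Myog and -0.33 to 1.77 for Mymk, and sham left against control from -0.11 to 1.91 for Myf5 and -0.19 to 1.03 for Myf6. With 3 animals a group, and 0 to 30 reads of Pax7 in a limb, small changes were not detectable.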
